A study of Mus musculus with 2 samples.

Results

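Pik3c2a, Pik3ca and Pik3cb, catalytic genes of phosphoinositide 3-kinase, hosted circular RNAs (circRNAs) in mouse small intestinal crypts, and each is described here by its back-splice junctions. A circRNA is a closed RNA ring made when a downstream splice donor is joined to an upstream splice acceptor, and reads that cross this join are counted as back-splice reads. All circRNAs assigned by gene name to any of the 3 genes were taken, which gave 6 of the 1132 circRNAs in the table, 4 of Pik3c2a, 1 of Pik3ca and 1 of Pik3cb. The circRNAs were taken by gene name and not by level, but the 3 genes were chosen with earlier results of these data known.

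The samples were total RNA from small intestinal crypts of wild-type mice, in 1 group of 2 libraries called replicate 1 and replicate 2. The labels used here state no strain, age, sex or number of animals. The titles name crypts and the cell type entry names small intestinal stem cells, and no sorting step is recorded. No treated or mutant group was analysed here, so the comparisons available are between circRNAs and between the libraries. No label ties a library to its own animal, so the spread between them may be technical, and the p-values below set it against counting error.

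The table lists 3546 back-splice reads for replicate 1 and 4441 for replicate 2. A level (CPM) is a circRNA's share of its library's listed reads on the usual CPM scale, so that 1 read equals 282 CPM in replicate 1 and 225 CPM in replicate 2. Each circRNA is counted at a single join, so its level is not scaled by length. None of 10 intestinal stem cell markers, among them Lgr5, Olfm4 and Ascl2, was listed as a circRNA host, nor was any of 5 Paneth cell markers or 5 markers of stroma and muscle. Hosts included 7 of 10 absorptive enterocyte markers, with 121 reads in replicate 1 and 104 in replicate 2, 3 of 6 goblet cell markers with 9 and 0 reads, and 3 of 6 immune markers with 4 and 26 reads. The enterocyte, goblet and immune reads include circRNAs listed as antisense or intron type, and circRNAs whose ends are not at annotated splice sites. Back-splice reads do not measure the expression of a host, and the part of these cell types in the values below was not tested.

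Phosphoinositide 3-kinases add a phosphate to the inositol ring of membrane phosphoinositides. Class I enzymes, whose catalytic subunits include the products of Pik3ca (the alpha subunit) and Pik3cb (the beta subunit), act below growth factor receptors and G protein-coupled receptors and make the trisphosphate that recruits AKT to the plasma membrane. The product of Pik3c2a is a class II enzyme that works in clathrin-mediated endocytosis and endosomal traffic. In the intestinal epithelium, growth factor and insulin signals reach cell growth and proliferation partly through class I enzymes.

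The back-splice joins are the features that were counted, and they are printed here to show what distinguishes each circRNA from the linear mRNA. Each line holds 30 bases before and 30 bases after the join, from 5′ to 3′ on the coding strand, with the end of the downstream exon in lower case and the start of the upstream exon in capitals. The bases come from the GENCODE M21 transcript sequences, on the mm10 build of the files, at the splice sites that match the deposited positions. Exon numbers follow 1 transcript per gene and can shift in others. The reads show the joined ends, while the exons between them, and every spliced length, GC content and reading frame given below, are taken from the annotation.
Pik3c2a exons 5 to 8 (chr7:116387844-116391393, minus strand): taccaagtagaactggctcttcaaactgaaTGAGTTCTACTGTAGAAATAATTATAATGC
Pik3c2a exons 4 to 8 (chr7:116387844-116394358, minus strand): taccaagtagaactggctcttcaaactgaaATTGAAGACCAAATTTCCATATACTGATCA
Pik3c2a exons 20 to 21 (chr7:116358636-116360100, minus strand): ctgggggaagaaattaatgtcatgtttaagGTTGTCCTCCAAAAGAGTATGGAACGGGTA
Pik3c2a exons 15 to 16 (chr7:116364428-116368189, minus strand): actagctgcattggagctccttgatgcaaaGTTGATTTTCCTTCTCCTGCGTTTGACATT
Pik3ca exons 13 to 15 (chr3:32451756-32454500, plus strand): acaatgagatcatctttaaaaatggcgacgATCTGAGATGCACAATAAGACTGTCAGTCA
Pik3cb exons 22 to 23 (chr9:99040921-99042669, minus strand): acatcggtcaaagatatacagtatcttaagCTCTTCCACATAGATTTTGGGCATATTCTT

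The first 2 lines share their lower-case part, because both circRNAs end at exon 8 of Pik3c2a, and they differ in the exon that follows the join. The 40 bases centred on each join were searched, on both strands, in 141767 annotated mouse transcripts, and none of the 6 was found in any of them. The 20 bases on either side of each join occurred in transcripts of the host gene alone. Apart from the pair that shares exons 5 to 8, which had 358 runs of 20 bases in common, no 2 of the circRNAs shared a run of 20 bases.

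Pik3c2a carried most of the signal. The gene (ENSMUSG00000030660, chr7:116337265-116443449, 106185 bases) had 17 reads in each library, summed over its 4 circRNAs. Its summed level was 4794 CPM in replicate 1 and 3828 CPM in replicate 2, a mean of 4311 ± 683 CPM (SD, n = 2). Among 885 gene names it ranked 42 by summed level, and 32 names had at least 4 circRNAs. A single circRNA was listed for 75.6% of the names.

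Pik3ca (ENSMUSG00000027665, chr3:32397671-32468486) had 0 reads listed in replicate 1 and 4 in replicate 2. Pik3cb (ENSMUSG00000032462, chr9:99036654-99140621) had 0 and 2 reads. The mean levels were 450 ± 637 CPM for Pik3ca and 225 ± 318 CPM for Pik3cb (SD, n = 2 each), so these genes did not differ beyond their spread, whereas Pik3c2a was above both in each library. The 3 genes together took 17 reads of replicate 1 and 23 of replicate 2, or 0.501% of all listed reads.

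**Figure D1:**
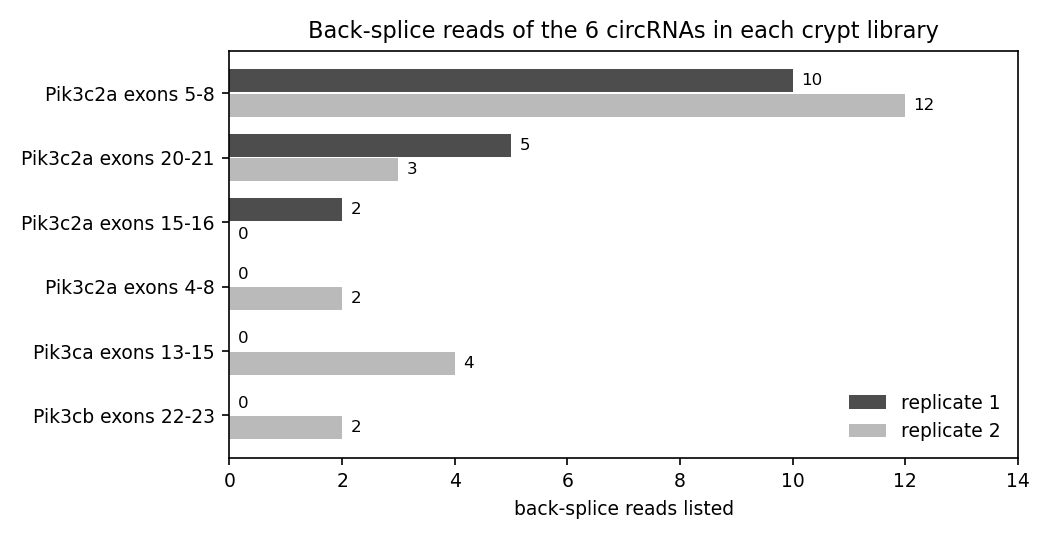
Back-splice reads (horizontal axis) of the 6 circRNAs (rows), with dark bars for replicate 1 and light bars for replicate 2 and the read number beside each bar. The circRNA of Pik3c2a exons 5 to 8 had 10 and 12 reads, that of exons 20 to 21 had 5 and 3, and each of the other 4 had reads in 1 library.

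The leading circRNA of Pik3c2a joined the end of exon 8 to the start of exon 5 of the 33 exons of transcript Pik3c2a-201, and it was among the more abundant circRNAs of the crypts. It had 10 reads in replicate 1 and 12 in replicate 2, which are 2820 and 2702 CPM, with a mean of 2761 ± 83.4 CPM (SD, n = 2). The libraries lay close together, with a log2 ratio of replicate 1 over replicate 2 of 0.06. Of the 167 circRNAs with reads in both libraries and at least 10 reads in total, 22, this one included, had a ratio as near to 0 or nearer, and the median size of the log2 ratio was 0.52. By mean level it ranked 63 of 1132, and 94.5% of circRNAs were at or below its level.

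This circRNA held 22 of the 34 reads of the gene, 64.7% (95% Clopper-Pearson interval 46.5 to 80.3%). The share was 58.8% in replicate 1 (32.9 to 81.6%) and 70.6% in replicate 2 (44.0 to 89.7%), and these intervals overlap widely. Intervals cover counting error only, since PCR copies of 1 molecule cannot be told apart here.

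A second Pik3c2a circRNA with the same exon 8 end reached back to exon 4. It had 0 reads listed in replicate 1 and 2 in replicate 2, a mean of 225 ± 318 CPM (SD, n = 2). By the annotation it differs from the leading circRNA by the 158 bases of exon 4, and the acceptor of exon 5 was used in 22 reads and that of exon 4 in 2. Across the table, 130 pairs of circRNAs from a shared transcript had 1 end in common and unequal reads, and the shorter had more reads in 70 of them (53.8%).

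The circRNA of exons 20 to 21 was the other one seen in both libraries, with 5 reads in replicate 1 and 3 in replicate 2. Its levels were 1410 and 676 CPM, a mean of 1043 ± 519 CPM (SD, n = 2), and it ranked 204 of 1132. The circRNA of exons 15 to 16 had 2 reads in replicate 1 and 0 listed in replicate 2, a mean of 282 ± 399 CPM (SD, n = 2). No exon was shared between these circRNAs and the pair that ends at exon 8, and in all 9 of the 33 exons of the gene lay in a circRNA.

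**Figure D2:**
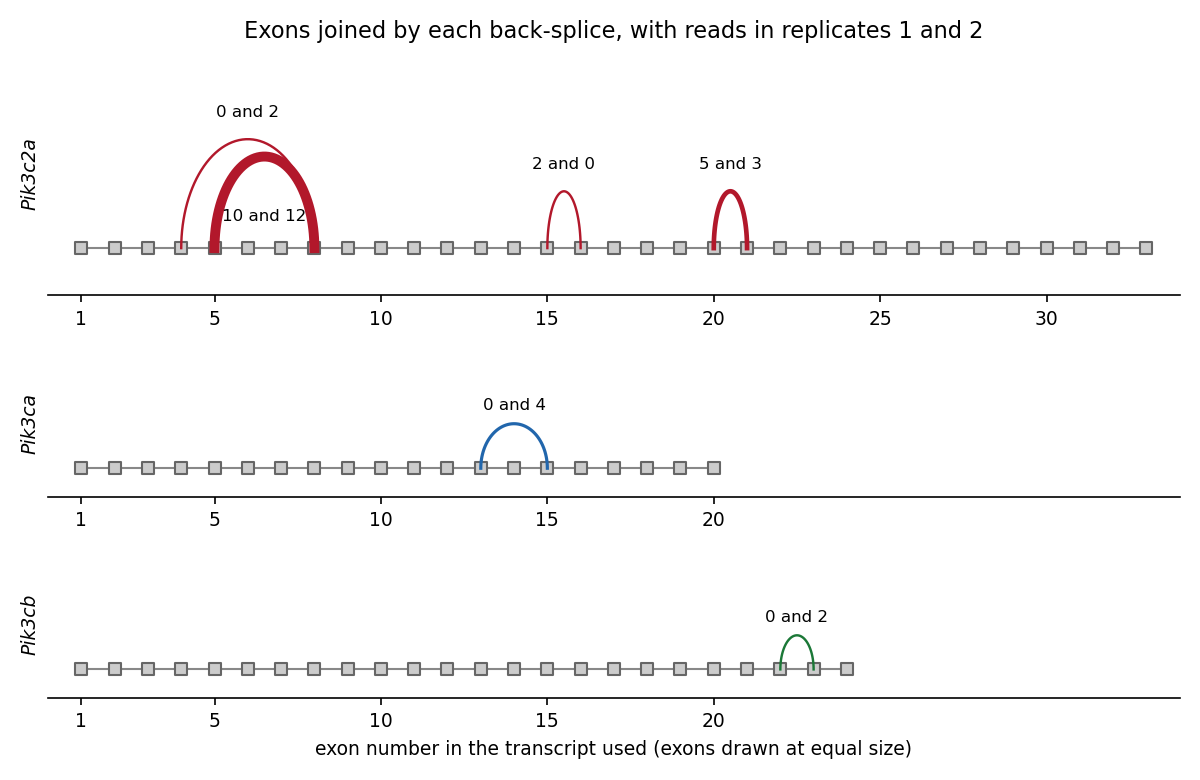
Exons of the transcript used for each gene (squares, horizontal axis giving the exon number, drawn at equal size) with an arc from the first to the last exon of each circRNA. Line width grows with total reads, and the numbers give reads in replicate 1 and replicate 2. Of the 4 Pik3c2a arcs, 2 end at exon 8, and the Pik3cb arc lies at exons 22 to 23 of 24.

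In Pik3ca the circRNA covered exons 13 to 15 of the 20 exons of Pik3ca-201, and in Pik3cb it covered exons 22 to 23 of the 24 exons of Pik3cb-201. The Pik3ca circRNA ranked 445 of 1132 by mean level, a rank it shared with 70 others that had the same pair of reads. Pik3cb ranked 918, tied with 173 others, among them the circRNA of Pik3c2a exons 4 to 8. Of 373 circRNAs with 2 reads in total, 372 had both in a single library, and the remaining 1 had them split. Single reads were not dropped throughout, since 41 circRNAs with 1 read in total are listed and 13 of the 330 circRNAs in both libraries have a single read in a library. Whether a listed 0 here stands for no read or for a read that was not kept is not known. At this depth the absence of Pik3ca and Pik3cb reads from replicate 1 cannot be told from a low level, and no ratio between the libraries is given for them.

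The libraries were compared for every circRNA with an exact binomial test, two-sided, against the library totals (44.4% of reads in replicate 1), with Benjamini-Hochberg adjustment over all 1132 circRNAs and a threshold of 0.05. It compares these libraries and no condition. None of the 6 circRNAs passed, against 1.59% of all circRNAs (18), and none had an unadjusted p under 0.05, against 106 of all. The adjusted p was 1 for Pik3c2a exons 5 to 8, 0.631 for exons 20 to 21 and for exons 4 to 8, 0.434 for exons 15 to 16, 0.434 for Pik3ca and 0.631 for Pik3cb in this exact test. On reads summed per gene name, 2.26% of 885 names passed, and Pik3c2a, Pik3ca and Pik3cb had adjusted p of 0.752, 0.436 and 0.649 (exact binomial test). With 2 to 8 reads in 5 of the circRNAs, a difference between the libraries was not detectable at this depth.

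**Figure D3:**
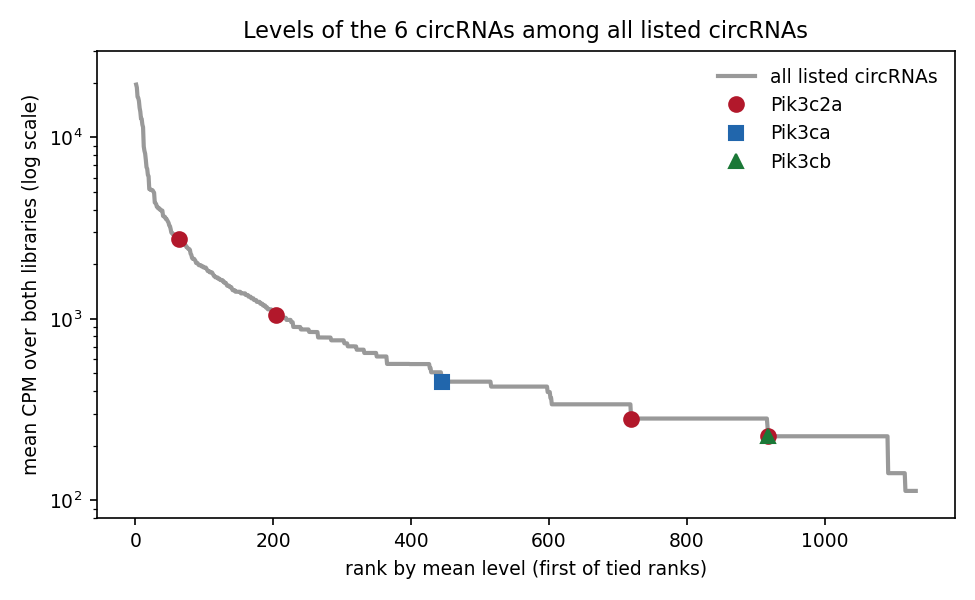
Mean CPM over both libraries (vertical log axis) against rank (horizontal axis) for all listed circRNAs (grey line), with the 6 circRNAs as points (circles for Pik3c2a, a square for Pik3ca, a triangle for Pik3cb). The Pik3c2a circRNAs spread over ranks 63, 204, 719 and 918, and the last shares its place with Pik3cb.

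In structure the 6 circRNAs were alike in several respects. All 6 were of the exon type in the deposited table, where 93.1% of circRNAs were, and all 6 had both ends at splice sites of 1 annotated transcript, as 89.0% of circRNAs did. All 6 lay within coding sequence, as did 822 of the 1008 circRNAs at splice sites. That none of the 6 held the start codon adds little, because a circRNA within coding sequence can hold it only at its very start. None began at exon 2, whereas 36.4% of the 1008 circRNAs at splice sites did. Reads in both libraries were found for 2 of the 6 (33.3%) and for 29.2% of all circRNAs.

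The introns on either side were short around 4 of the 6 circRNAs. For each circRNA the upstream and downstream intron were averaged, and the 6 averages had a median of 1841 bases, against 11703 bases over the 1008 circRNAs. All 6 were below that median. The lowest was that of Pik3c2a exons 15 to 16, with introns of 557 and 985 bases, and 3.17% of circRNAs had an average as low or lower. Those of Pik3ca (1390 and 1592 bases) and Pik3cb (2075 and 1070 bases) stood at the 9.03 and 9.72 percentiles, and that of Pik3c2a exons 20 to 21 (1946 and 2271 bases) at the 13.9 percentile. The averages of Pik3c2a exons 5 to 8 and exons 4 to 8 stood higher, at the 32.8 and 46.1 percentiles. Of the 1008, 36.4% began at exon 2, with the first intron of the transcript upstream, and none of the 6 did. The percentiles were not matched for this.

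The pair that ends at exon 8 had a longer downstream intron of 9080 bases, above the median downstream intron of 8216 bases over the 1008 circRNAs and the 4th longest of the 32 introns of Pik3c2a. Upstream, the intron before exon 4 measured 11501 bases, against a median of 11221 bases over the 1008, and was the second longest of the gene, and the intron before exon 5 measured 2807 bases. The circRNA with the longer upstream intron was the one with fewer reads. The median intron was 1902 bases in Pik3c2a, 747 in Pik3ca and 1678 in Pik3cb. By length, the upstream and downstream introns ranked 15 and 11 of 32 around Pik3c2a exons 20 to 21, 26 and 20 of 32 around exons 15 to 16, 9 and 6 of 19 around the Pik3ca circRNA, and 11 and 20 of 23 around the Pik3cb circRNA. These are descriptions of 6 circRNAs from 3 genes, in which the 4 Pik3c2a circRNAs are not independent.

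**Figure D4:**
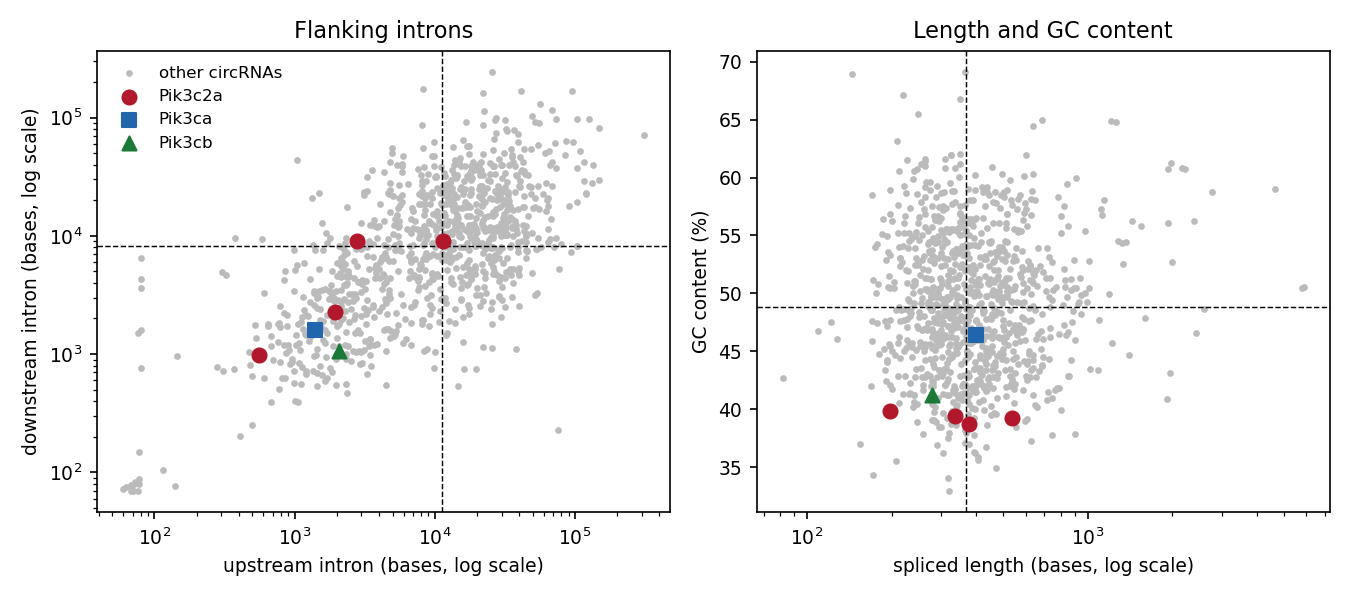
Left, upstream against downstream intron length in bases (both log axes); right, spliced length in bases (log axis) against GC content in percent, for the 1008 circRNAs at splice sites (grey) and the 6 circRNAs (coloured as named). Dashed lines mark the medians over the 1008, and the points of the 6 lie below the GC median of 48.8%.

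Spliced lengths were 377 bases for Pik3c2a exons 5 to 8, 535 for exons 4 to 8, 198 for exons 20 to 21 and 335 for exons 15 to 16. The Pik3ca circRNA measured 401 bases and the Pik3cb circRNA 279 bases. Their median of 356 bases was near that of all circRNAs at splice sites (368 bases), and 4.17% of these were as short as exons 20 to 21 of Pik3c2a or shorter.

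GC content was low in Pik3c2a. Its 4 circRNAs had 38.7% to 39.9% GC, at the 2.98 to 5.26 percentiles of the 1008, and the median over all was 48.8%. The whole coding sequence of Pik3c2a had 41.3% GC, so the circRNAs were close to their host in this. Pik3cb had 41.2% GC in its circRNA and 46.1% in its coding sequence, and Pik3ca had 46.4% and 44.5%.

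The exons on either side of the leading join and the whole ring of exons 20 to 21 are printed to show the reading frame across a join. In the first line the stop codon described below is in capitals at the start of exon 5, in the second line there are no capitals, and in the third line exon 21 is in capitals.
Pik3c2a exon 5 (121 bases): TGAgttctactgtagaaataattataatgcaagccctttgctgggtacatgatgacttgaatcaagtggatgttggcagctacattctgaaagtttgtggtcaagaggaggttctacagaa
Pik3c2a exon 8 (64 bases): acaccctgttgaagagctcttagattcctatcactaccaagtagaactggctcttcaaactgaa
Pik3c2a ring of exons 20 to 21 (198 bases): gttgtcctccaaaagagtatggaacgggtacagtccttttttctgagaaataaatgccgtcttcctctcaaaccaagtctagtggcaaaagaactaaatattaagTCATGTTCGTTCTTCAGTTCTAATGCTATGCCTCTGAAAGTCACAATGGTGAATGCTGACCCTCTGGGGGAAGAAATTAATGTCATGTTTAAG

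The leading ring spans codons 444 to 569 of the 1686 of Pik3c2a and that of exons 20 to 21 spans codons 1073 to 1138. In the first, the frame of the mRNA, followed through exon 8 and across the join, meets the stop codon TGA in the first bases of exon 5 (0 bases after the join). A stop codon placed exactly there was found in 10 of the 822 wholly coding circRNAs (1.22%). The ring of exons 20 to 21 has 198 bases, a multiple of 3, and its frame meets no stop codon around the ring. Translation was not measured.

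The frame was also open around the ring of Pik3cb, whose 279 bases span codons 927 to 1019 of 1064 near the carboxyl end, where the kinase domain of class I catalytic subunits lies. In the other 3 circRNAs the frame meets a stop codon after the join, at 24 bases in Pik3c2a exons 4 to 8, at 100 bases in exons 15 to 16 and at 80 bases in Pik3ca, whose ring spans codons 672 to 806 of 1068. An open frame was thus seen in 2 of 6 circRNAs, and in 34.3% of the 822 wholly coding circRNAs. A length that is a multiple of 3 was equally frequent (2 of 6, and 282 of the 822), so the open frame adds little to the length.

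Other genes of the phosphoinositide pathway were hosts in 7 of 51 cases (13.7%), while 4% of 20620 multi-exon protein-coding genes were hosts. The 2 sets were not matched for expression or exon number, the lists were chosen with earlier results known, and the difference was not tested. Among class I catalytic genes Pik3ca and Pik3cb were 2 of 4, and among class II genes Pik3c2a and Pik3c2b were 2 of 3. Pik3c2a, Pik3ca and Pik3cb were chosen with their circRNAs already listed, so these shares cannot be set against the 4%. The class III gene Pik3c3 was not listed. Pik3c2b, a class II relative of Pik3c2a, had 1 circRNA of exons 2 to 3 (chr1:133066212-133070418) with 2 reads in replicate 1 and 0 in replicate 2. Pik3r1, which encodes the main regulatory subunit of class I enzymes, was the 1 host among 6 regulatory genes, with a circRNA of exon 2 (chr13:101757326-101758039) at 2 and 0 reads.

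Of 14 genes for phosphatases of 3-phosphoinositides, the myotubularin genes Mtm1 and Mtmr3 were hosts. Mtmr3 had 9 reads in replicate 1 and 11 in replicate 2 over 3 circRNAs, a summed level of 2508 ± 43.2 CPM (SD, n = 2). Mtm1 had 5 and 8 reads over 2 circRNAs, 1606 ± 277 CPM. The leading circRNA of each covered exons 2 to 6 and had reads in both libraries, with 6 and 6 reads for Mtmr3 and 5 and 6 for Mtm1. Like Pik3c2a, each had another circRNA with 1 end in common, here at exon 2.

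Of 11 other phosphoinositide kinase genes, Pip5k1b and Pip5k1c, which encode kinases that make the substrate of class I enzymes, were hosts. Pip5k1b had 10 and 6 reads over 4 circRNAs, 2086 ± 1039 CPM (SD, n = 2), of which 1 was listed as antisense, and Pip5k1c had 0 and 2 reads. Rptor, which encodes a subunit of mTOR complex 1 (mTORC1), was the 1 host among 15 effector genes, with 2 and 2 reads. Pik3c2a had the highest summed level of these 10 hosts.

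**Figure D5:**
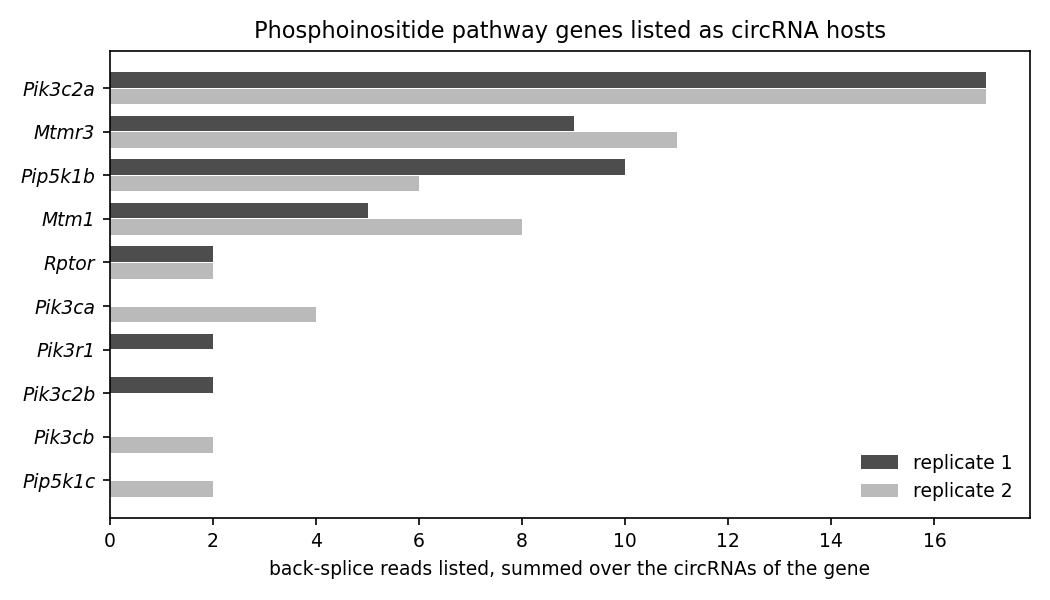
Back-splice reads summed over the circRNAs of each gene (horizontal axis) for the 10 pathway genes listed as hosts (rows, ordered by mean level), with dark bars for replicate 1 and light bars for replicate 2. Pik3c2a leads with 17 and 17 reads, and Pik3ca, Pik3cb, Pik3c2b, Pik3r1 and Pip5k1c have reads in 1 library.

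The circRNAs of other genes nearest to the leading Pik3c2a circRNA, by Euclidean distance of log2(CPM + 1) over the 2 libraries, belonged to Elf2 (10 and 13 reads, distance 0.12), Rnf114 (10 and 11 reads, distance 0.13) and Acvr2a (11 and 12 reads, distance 0.14). Likeness over 2 libraries of 1 group reflects a like abundance and no pattern across conditions. For Pik3ca 70 circRNAs of other genes had the same pair of reads, and for Pik3cb 173 did. By the alphabet of their gene entries, the first were Ascc3 (entered with AC153529.1), Adck5 and Ahcyl2 for Pik3ca.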

How the data were processed

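Crypt RNA was prepared for sequencing with an MGI library kit, per the labels' protocols. The submitters' processing notes name mm10 as the build. Aligner, circRNA caller, strand setting and filters: not given in the sources used here. Deposited counts are whole back-splice reads per circRNA. The deposited CPM values are a normalised signal that equals the counts times a constant per library. No column with values of other samples was present.

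Levels were recomputed as CPM of the listed totals (3546 and 4441 reads). These totals are not sequencing depth. With 1 group, no model between groups could be fitted. The libraries were compared by exact binomial tests with Benjamini-Hochberg adjustment (scipy 1.17.1). The test was tried on simulated counts with more reads per circRNA than these libraries have, so that trial does not cover this depth. The alternatives used edgeR 4.0.16 and DESeq2 1.42.0 scaling. Positions were matched to GENCODE M21 (GRCm38), and protein-coding, basic transcripts with the longest coding sequence were preferred. Genome sequence was not used. Intervals are 95% Clopper-Pearson.

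Genes named are the 3 members, every host among 54 pathway genes, and the 3 circRNAs nearest to each leading circRNA, ties being broken alphabetically. Marker lists covered intestinal stem, Paneth, absorptive enterocyte, goblet, immune, and stroma and muscle cells. Members and lists were chosen with earlier results of these data known. Pik3c3 and the stem cell markers named as not listed were chosen after the table was seen. Some genes that the naming rule selects are not reported here.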

Additional observations from a re-analysis of the deposited data

How the results depend on the processing

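The levels of the 3 genes and of the 6 circRNAs stayed within 1 SD under edgeR scaling, which gives the deposited values, and under DESeq2 scaling. For Pik3c2a this held also with the stricter row filters. The scaling checks are weak, because the factors are near 1 (edgeR 1.04 and 0.965 for replicates 1 and 2) and each SD rests on 2 libraries. Leaving out a library gives the other library's own level, printed above: without replicate 2, Pik3ca and Pik3cb are listed at 0. The number of circRNAs of the 3 genes was 6, and it was 2 with at least 5 reads in total and 2 with reads in both libraries, all of Pik3c2a. Leaving out a library gave between 3 (without replicate 2) and 5 (without replicate 1). Pathway hosts numbered 10, and 5 with a circRNA in both libraries. Filters that need 5 reads or both libraries left no value for Pik3ca and Pik3cb. No paired analysis was possible because the series has 1 group. Depth limits most values: the median circRNA had 3 reads in total.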
